A study of Mus musculus with 29 samples.

Results

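The genes described here encode the constitutive subunits of the proteasome. They were chosen by their symbols, namely Psma, Psmb, Psmc or Psmd followed by a number, without Psmb8, Psmb9 and Psmb10, the inducible catalytic subunits of the immunoproteasome. Of 36 symbols of this form, 35 had a probe set that names the gene alone. Psma4 did not, since both of its probe sets also name AY074887, and it has no value here. These 35 genes stand among 22180 genes with such a probe set and 41345 probe sets in all, each on 29 arrays. Psma5 and Psmc2 had 2 probe sets each and were read from the one with the higher mean.

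Total RNA came from the distal colon of female C57BL/6 mice aged 18 to 24 weeks and was hybridised to arrays (Affymetrix, version 2.0 ST of the mouse gene design), each from 1 mouse. Untreated mice were 8 wild type (WT) and 8 Cygb-/- animals. A further 8 WT and 5 Cygb-/- animals had received azoxymethane (AOM), a colon carcinogen, once at 7.4 mg/kg, followed by 3% dextran sulfate sodium (DSS), which injures the colonic epithelium, for 7 days per cycle. Cygb encodes cytoglobin, and the Cygb-/- mice carry a constitutive deletion of its exon 2 in every cell, made in stem cells of another strain and then backcrossed to C57BL/6 J. The labels give 1 DSS cycle and death in week 5 for these arrays, whereas the study's methods give a second cycle and a later week, so the length of treatment is not settled.

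The proteasome degrades proteins tagged with ubiquitin. Its barrel-shaped 20S core particle is built of rings of alpha subunits (Psma genes), which gate the entrance, and rings of beta subunits (Psmb genes), of which Psmb5, Psmb6 and Psmb7 carry, in most tissues, the chymotrypsin-like, caspase-like and trypsin-like active sites. The 19S regulatory particle caps the barrel, binds ubiquitin chains, removes them and threads the substrate in. Its base holds a ring of ATPases (Psmc genes) and the scaffold subunits Psmd1 and Psmd2, the ubiquitin receptor Psmd4 sits beside them, and its lid holds most other Psmd subunits, among them the deubiquitinase Psmd14. Psmd5, Psmd9 and Psmd10 are chaperones that help to assemble the base. In mouse and human cells the transcription factor NRF1 (Nfe2l1) raises subunit genes together when proteasome activity falls short. In inflamed tissue interferon induces Psmb8 and Psmb9, which replace Psmb5 and Psmb6 in new particles. In this study Psmb6 is the reference gene of the RT-qPCR assays.

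Values are log2 array values, and a difference of 1 is 2-fold. They come without a detection call. The mean over 29 arrays lay above that of the median probe set (4.81) for 32 of the 35 genes. It lay below for Psma5 (4.11), for Psma8 (3.77), an alpha subunit known from the testis, and for Psmb11 (3.79), the catalytic beta subunit that takes the place of Psmb5 in the thymus. Values of different probe sets depend on their probes and are not compared with each other. "Higher" and "lower" in a count mean an adjusted p under 0.05 from limma, adjusted by the method of Benjamini and Hochberg across all 41345 probe sets.

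The targeted gene followed the labels, since Cygb lay between 5.84 and 6.48 on the 13 Cygb-/- arrays and between 8.41 and 9.29 on the 16 WT arrays. Female cells use Xist to silence 1 of their X chromosomes. On AOM/DSS Cygb-/- replicate 3 it was at 3.82 against a group median of 10.66, which goes against the female label. The treatment calls and median in Cygb-/- colons and the median of the interaction are given without this array too. Differences of single genes between treated genotypes, the spread, the particle means and the correlations are given with it only. On AOM/DSS WT replicate 3 the mean of the 35 genes stood 0.39 above untreated WT, the highest of all arrays. The makeup of the tissue moved with treatment. All 8 neutrophil markers were higher in both genotypes, with a log2 summed level of 7.11 to 7.42 on untreated and 9.28 to 11.96 on AOM/DSS arrays, and so were all 5 macrophage markers (9.49 to 9.95 against 10.83 to 11.81). Of 6 proliferation genes, 4 were higher in WT and 6 in Cygb-/- colons (10.81 to 11.18 against 10.93 to 11.82). Of 7 measured squamous markers, 5 and 6 were higher (6.49 to 9.85 against 7.16 to 12.13). All 6 smooth muscle markers were lower in both (14.25 to 14.60 against 13.49 to 14.32), as were 4 and 5 of 8 colonocyte markers (14.18 to 14.37 against 13.31 to 14.04). All 4 measured B and plasma cell markers and 3 of 4 T cell markers were higher in both. The part of these shifts in the proteasome values was not tested, and in whole tissue a change in the share of cells and a change of RNA per cell cannot be told apart.

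Promoter sequence was at hand in RefSeq's table (GRCm38.p6) for 28 of the 35 genes, in 30 windows from 250 bases before to 50 bases after a start. Motifs linked to proteasome promoters were searched on both strands, the core of the antioxidant response element, TGACNNNGC, and the CCAAT box, CCAAT. The first was in 5 of the 30 windows (16.7%) and in 12.4% of all 32851 windows, and the second in 12 of 30 (40.0%) and in 37.4% of all. No window of these genes held both. Both shares were close to those of all promoters, and a match is a string of letters, not a shown binding site. The 100 bases before the start are printed for Psmb5 and Psmb6, whose windows hold the antioxidant core, and for 3 genes that were higher after AOM/DSS in both genotypes and hold a CCAAT box there. Capitals mark the match, and on the opposite strand CCAAT reads as ATTGG.
Psmb5: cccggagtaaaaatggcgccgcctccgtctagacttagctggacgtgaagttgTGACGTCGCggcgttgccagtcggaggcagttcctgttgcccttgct
Psmb6: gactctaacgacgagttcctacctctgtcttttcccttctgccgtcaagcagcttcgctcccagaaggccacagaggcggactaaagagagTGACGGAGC
Psma1: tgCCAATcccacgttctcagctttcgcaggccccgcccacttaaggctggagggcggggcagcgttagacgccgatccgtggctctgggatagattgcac
Psmc2: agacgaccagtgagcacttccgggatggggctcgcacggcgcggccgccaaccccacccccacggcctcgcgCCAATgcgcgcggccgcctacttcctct
Psmd10: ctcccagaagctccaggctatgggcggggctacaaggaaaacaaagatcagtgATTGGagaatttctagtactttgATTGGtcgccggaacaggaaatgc
These stretches lie at chr14:54617996-54618095 (minus strand, Psmb5), chr11:70525257-70525356 (plus strand, Psmb6), chr7:114276117-114276216 (minus strand, Psma1), chr5:21785175-21785274 (plus strand, Psmc2) and chrX:140956712-140956811 (minus strand, Psmd10). The core starts 47 bases before the start of Psmb5 and 9 bases before that of Psmb6. Among the other genes higher in both genotypes, Psmd12 held an antioxidant core 247 bases and Psmd14 a CCAAT box 159 bases before the start, both on the opposite strand. Psmc4, Psmd1 and Psmd2 held neither motif in the window. Psma8, Psmb1, Psmb2, Psmb7, Psmc3, Psmd3 and Psmd7 were not analysed here. For Psmc2, which has 2 windows, the first is printed.

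The first question is how the subunit genes responded to AOM/DSS. In WT colons 10 of the 35 genes were higher after treatment and 0 were lower, with 14 at an unadjusted p under 0.05. Regulatory particle genes made up most of them, with 8 of 20, against 2 of 15 core genes. Among all probe sets 12.5% rose and 14.3% fell, and of the 13275 genes with a mean above the median probe set 24.0% were higher, against 10 of the 32 subunit genes with such a mean. The difference was positive for 29 of 35 genes (82.9%), as for 43.3% of all probe sets. Its median was 0.13, against -0.037 over all probe sets. Among genes with a mean above the median probe set it was positive for 28 of the 32 subunit genes and for 51.3% of all 13275, whose median was 0.0079. No subunit gene reached 1.5-fold.

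In Cygb-/- colons 14 of the 35 genes were higher and 0 were lower, with 19 at an unadjusted p under 0.05. These were 11 of 20 regulatory particle genes and 3 of 15 core genes, 12 of which had a mean above the median probe set. The background was 12.6% higher and 13.5% lower over all probe sets, and 26.4% higher among the genes with a mean above the median probe set. The difference was positive for 33 of 35 genes (94.3%), as for 43.5% of all probe sets, and its median was 0.17 against -0.038. Among genes with a mean above the median probe set it was positive for 31 of the 32 subunit genes and for 51.5% of all 13275, whose median was 0.013. The 10 genes of the WT comparison, all of its calls, were also 10 of these 14. Psma3, Psmc6, Psmd6 and Psmd11 were called in Cygb-/- colons alone, but the difference between genotypes was not past the threshold for any of them. Psmd6 also passed in WT colons in several other settings, among them a filter on dim probe sets. The other 21 genes were called in neither genotype.

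**Figure D1:**
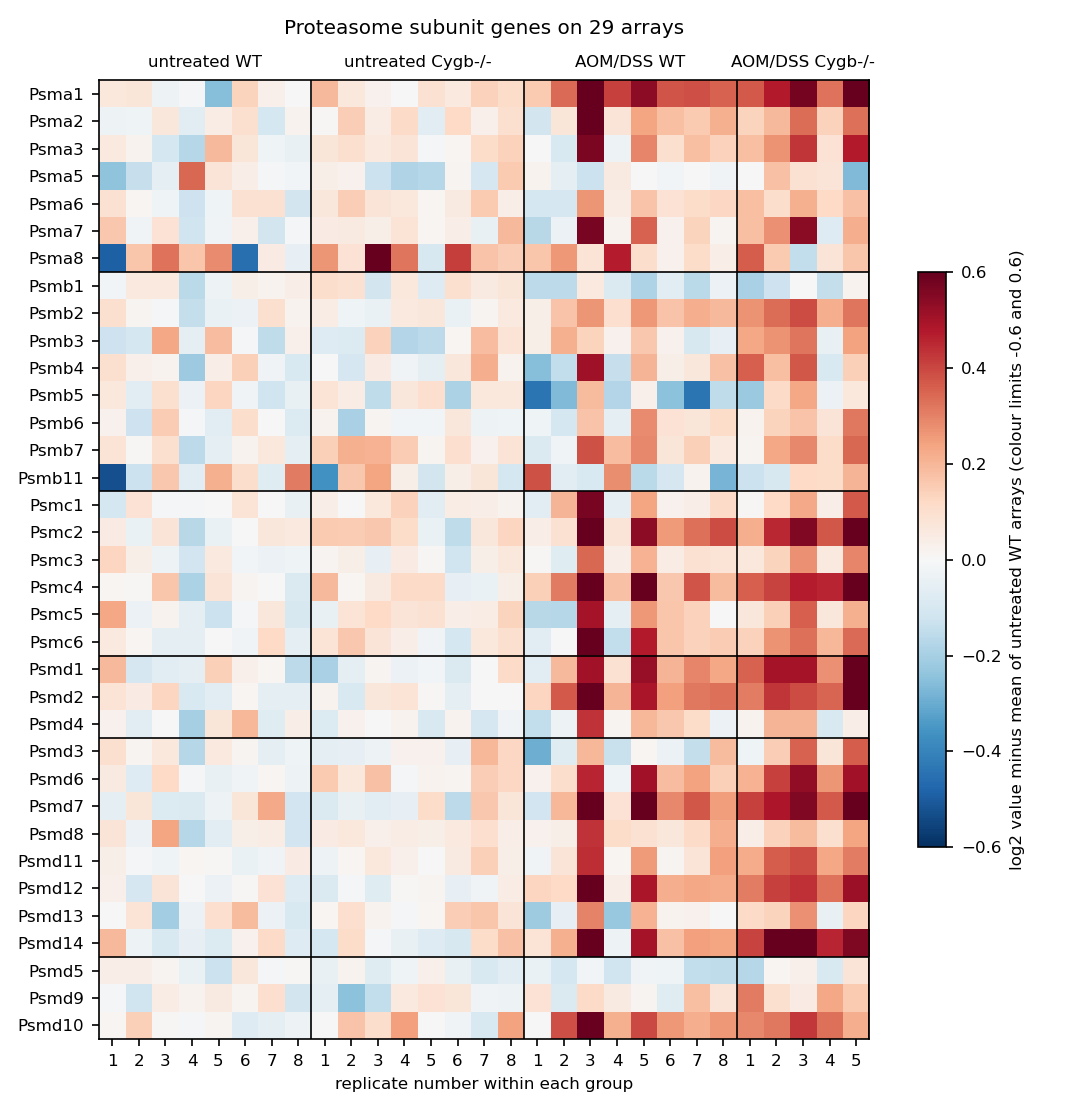
Log2 value of each of the 35 genes (rows, grouped by ring, ATPases, base, lid and assembly chaperones) on each of the 29 arrays (columns, numbered by replicate), minus the gene's mean over the 8 untreated WT arrays; colours stop at -0.6 and 0.6. The columns of AOM/DSS WT replicates 3 and 5 are red in most rows, and the row of Psmd5 is pale throughout.

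The deubiquitinase gene Psmd14, whose product cuts ubiquitin chains off the substrate, gave the largest difference of all 35 genes in Cygb-/- colons. In untreated WT colons it ran from 6.49 to 6.77 (median 6.54, n = 8) and in untreated Cygb-/- colons from 6.47 to 6.75 (median 6.55, n = 8). After AOM/DSS it ran from 6.55 to 7.22 (median 6.80, n = 8) in WT colons, and on the 5 Cygb-/- arrays it was 6.98, 7.18, 7.29, 7.04 and 7.14. All 5 lay above every untreated Cygb-/- array, while the WT groups overlapped. The difference was 0.54 in Cygb-/- colons, or 1.45-fold (standard error 0.07, adjusted p = 6.7e-05 from limma), and 0.26 in WT colons (standard error 0.09, adjusted p = 0.034 from limma).

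Psmd7, the lid subunit that pairs with Psmd14, moved in the same direction. Its untreated values ran from 8.86 to 9.20 (median 8.93) in WT and from 8.82 to 9.13 (median 8.93) in Cygb-/- colons. After AOM/DSS they ran from 8.86 to 9.65 (median 9.24) in WT colons and were 9.38, 9.46, 9.53, 9.34 and 9.62 in Cygb-/- colons. The Cygb-/- groups did not overlap, and the WT groups did, with AOM/DSS WT replicate 1 at the bottom of the range. The difference was 0.50 in Cygb-/- (standard error 0.07, adjusted p = 0.00011 from limma) and 0.30 in WT colons (standard error 0.10, adjusted p = 0.035 from limma).

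Of the other lid genes, Psmd12, which helps to hold the lid together, rose by 0.42 in Cygb-/- (adjusted p = 4.8e-05) and by 0.26 in WT colons (adjusted p = 0.018), both from limma. Psmd6 and Psmd11, structural subunits of the lid, were called in Cygb-/- colons alone, at 0.30 and 0.26, against 0.20 (adjusted p = 0.051) and 0.14 (adjusted p = 0.13) in WT colons, from limma. Psmd3, Psmd8 and Psmd13 were not called in either genotype. Psmd3 was the lid gene with a negative difference in WT colons, at -0.034, against 0.16 in Cygb-/- colons.

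The base scaffolds Psmd1 and Psmd2 bind shuttle factors and substrates at the mouth of the particle. Psmd2 ran from 8.96 to 9.17 (median 9.03) in untreated WT and from 8.95 to 9.13 (median 9.05) in untreated Cygb-/- colons. After AOM/DSS it ran from 9.17 to 9.65 (median 9.37) in WT colons and was 9.35, 9.48, 9.44, 9.40 and 9.72 in Cygb-/- colons. In WT colons 7 of 8 treated arrays, and in Cygb-/- colons 5 of 5, lay above every untreated array of the genotype. The difference was 0.33 in WT (standard error 0.07, adjusted p = 0.0012 from limma) and 0.43 in Cygb-/- colons (standard error 0.07, adjusted p = 0.00024 from limma).

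Psmd1 rose by 0.25 in WT and by 0.49 in Cygb-/- colons (adjusted p = 0.035 and 0.00018 from limma). Psmd4, a ubiquitin receptor, was not called, at 0.088 and 0.11. Of the 6 ATPase genes, which unfold the substrate, all 6 differences were positive in both genotypes. Psmc4 rose by 0.33 in WT and 0.41 in Cygb-/- colons (adjusted p = 0.0070 and 0.00025 from limma), and Psmc2 by 0.29 and 0.37 (adjusted p = 0.016 and 0.0030 from limma). Psmc6 was called in Cygb-/- colons alone, at 0.21 against 0.18 in WT colons. Of the assembly chaperones of the base, which leave the finished particle, Psmd10 rose in both genotypes, by 0.29 and 0.23. Psmd9 was not called, at 0.046 in WT and 0.21 in Cygb-/- colons (adjusted p = 0.051 from limma), and Psmd5 was at -0.078 and 0.0078.

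In the core particle, Psma1, an alpha ring subunit, gave the largest difference in WT colons. It ran from 7.80 to 8.19 (median 8.07) in untreated and from 8.21 to 8.82 (median 8.44) in treated WT colons, so that all 8 treated arrays lay above all 8 untreated ones. Of the 35 genes, it was the only one whose WT groups did not overlap, while 4.05% of all probe sets had every treated above every untreated WT array. The same held in Cygb-/- colons for 11 of the 35 genes and for 7.58% of all probe sets. Among the 13275 genes with a mean above the median probe set, the shares were larger, at 9.80% in WT and 17.9% in Cygb-/- colons. In Cygb-/- colons Psma1 ran from 8.05 to 8.25 (median 8.13) untreated and was 8.42, 8.54, 8.63, 8.38 and 8.74 after AOM/DSS. The difference was 0.41 in WT, or 1.33-fold (standard error 0.08, adjusted p = 0.00065 from limma), and 0.40 in Cygb-/- colons (standard error 0.07, adjusted p = 0.00050 from limma).

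Psmb2, a beta ring subunit with no active site, rose by 0.18 in WT (adjusted p = 0.018) and by 0.29 in Cygb-/- colons (adjusted p = 0.00074), both from limma. Psma3, of the alpha ring, was called in Cygb-/- colons alone, at 0.22 against 0.14. The other core genes were not called. Psmb1 was negative in both genotypes, at -0.099 in WT and -0.12 in Cygb-/- colons (adjusted p = 0.17 in both, from limma). The testis subunit Psma8 was at 0.16 and -0.13, the lowest difference in Cygb-/- colons, and the thymus subunit Psmb11 at -0.0016 and 0.047, both at values where the array hardly measures.

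None of Psmb5, Psmb6 and Psmb7, nor the dim Psmb11, was called in either genotype. Psmb5 ran from 7.51 to 7.76 (median 7.60) in untreated WT and from 7.19 to 7.82 (median 7.42) in treated WT colons. The groups overlapped, but 6 of the 8 treated arrays lay below the untreated median, and replicate 3 was the highest of all 16. The difference was -0.19 (standard error 0.08, limma's adjusted p = 0.11) and was the most negative of the 35 in WT colons. In Cygb-/- colons Psmb5 ran from 7.44 to 7.73 (median 7.69) untreated, was 7.41, 7.74, 7.86, 7.59 and 7.69 after AOM/DSS, and differed by 0.020 (adjusted p = 0.89 from limma). Psmb7 differed by 0.13 in WT and 0.082 in Cygb-/- colons (adjusted p = 0.18 and 0.43 from limma).

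**Figure D2:**
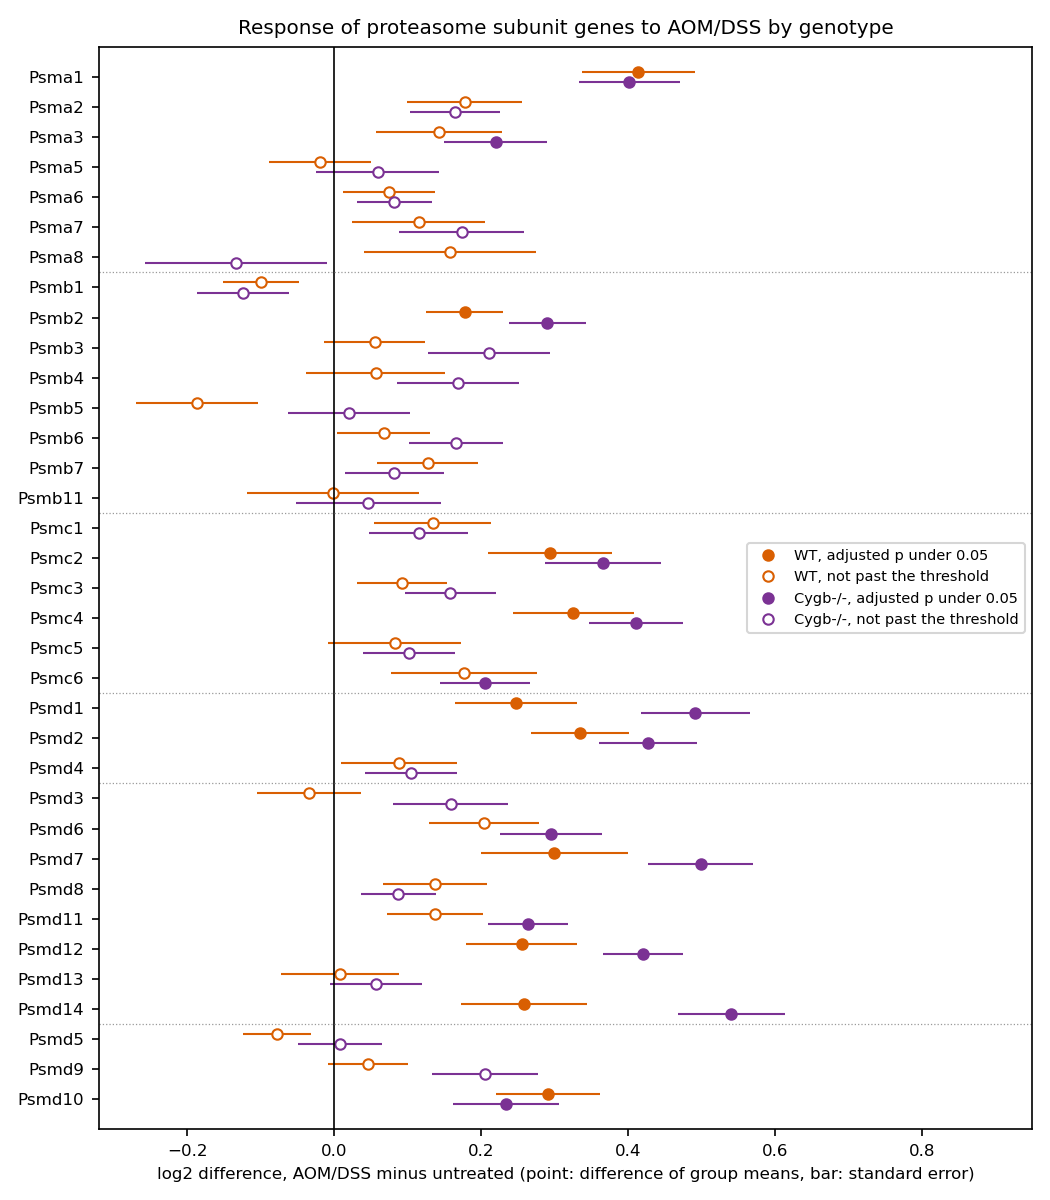
Log2 difference between AOM/DSS-treated and untreated colons (horizontal axis) of each gene (rows, in the same order as the heat map) in WT and Cygb-/- mice; points are differences of group means, bars standard errors, and filled points passed the threshold. Filled points run from 0.18 to 0.54, and most lie among the regulatory particle genes in the lower part.

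**Figure D3:**
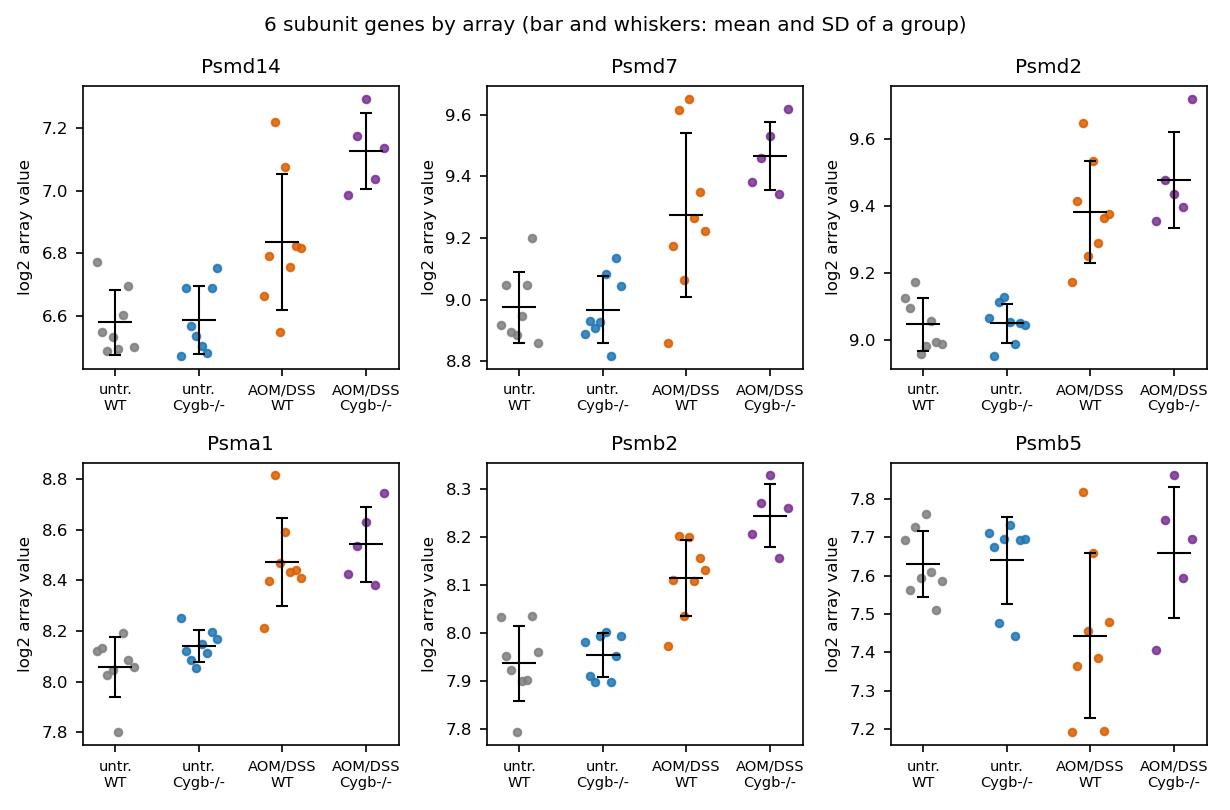
Log2 array values of 6 subunit genes (vertical axes) in the 4 groups; each point is an array, and bar and whiskers are the mean and SD of the group. Psma1 separates treated from untreated arrays in both genotypes, Psmd14, Psmd7, Psmd2 and Psmb2 do so in Cygb-/- colons, and the groups of Psmb5 overlap.

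These calls rested on small differences, and some on single arrays. In WT colons 7 of the 10 calls held when any 1 array was left out, namely Psma1, Psmb2, Psmc2, Psmc4, Psmd2, Psmd10 and Psmd12. The calls of Psmd1, Psmd7 and Psmd14 ended without AOM/DSS replicate 3, 5 or 7 or untreated replicate 3, 4 or 8, and some of them without untreated replicate 1, 2, 5 or 7, with adjusted p up to 0.070, 0.068 and 0.069. With each array centred on its median, these 3 and Psmb2 were not called in WT colons (adjusted p of 0.054 to 0.062, from limma). Without AOM/DSS WT replicate 3 the median of the 35 genes was 0.083, and Psmb5 passed the threshold as lower (adjusted p = 0.021, from limma). In Cygb-/- colons 11 of the 14 calls held without any 1 array. Without AOM/DSS Cygb-/- replicate 3, the array with low Xist, Psma3, Psmc6 and Psmd10 lost their calls, Psmd9 gained one, 12 genes were higher, and the median was 0.14. Psma3 also lost it without AOM/DSS replicate 2 or 5 or untreated replicate 3, 5 or 6, Psmc6 without AOM/DSS replicate 5, and Psmd10 without AOM/DSS replicate 2 or 4 or untreated replicate 6, with adjusted p up to 0.090, 0.060 and 0.074.

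The next question is whether genotype changed these levels. Between untreated Cygb-/- and WT colons 0 of the 35 genes were called by limma (1 at an unadjusted p under 0.05, Psmb7), as were 0.0121% of all probe sets higher and 0.00967% lower. The median difference was 0.036, and it was 0.014 without untreated WT replicate 4. Psmb7 was 0.12 higher in Cygb-/- colons (standard error 0.05, adjusted p = 0.67 from limma) and Psma8 0.26 (standard error 0.13, adjusted p = 0.75 from limma). At the other end stood Psma5 at -0.044 and Psmd5 at -0.036.

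When the treated animals of both genotypes were set against each other, 0 of 35 genes were called by limma as well (2 at an unadjusted p under 0.05, Psmd14 and Psmd3), as were 0.0339% of all probe sets higher and 0.133% lower. The difference was positive for 33 of 35 genes, as for 50.5% of all probe sets and 49.6% of genes with a mean above the median probe set. Its median was 0.095 against 0.0016 over all probe sets. Members of 1 complex vary together on the same arrays, so the count of 33 does not rest on 35 separate observations. Psmd14 was 0.29 higher in Cygb-/- colons (standard error 0.11, adjusted p = 0.40 from limma), with 5 of 5 arrays above the WT median, and Psmb5 was 0.22 higher (standard error 0.11, adjusted p = 0.57 from limma). Psma8 (-0.035) and Psmd4 (-0.012) were the only negative ones. The markers of neutrophils differed by a median of 1.10 over 8 genes and the proliferation genes by 0.45 over 6, both towards Cygb-/- colons and with 0 called, and their part was not tested.

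The signed difference on AOM/DSS was more positive or less negative in Cygb-/- than in WT colons for 27 of the 35 genes. This is a count over genes that vary together, and the interaction was positive for 50.3% of all probe sets. It was called by limma for 0 of the 35 genes (2 at an unadjusted p under 0.05, Psmd14 and Psmd1). Over all probe sets 0.0460% were called higher and 0.102% lower. The median interaction of the 35 genes was 0.077, and 0.042 without AOM/DSS Cygb-/- replicate 3. The interaction was 0.28 for Psmd14 (standard error 0.11, adjusted p = 0.48 from limma) and 0.24 for Psmd1 (standard error 0.11, adjusted p = 0.58 from limma). Psma8 was at -0.29 and Psmd10 at -0.057. The highest of the 4 group means was that of AOM/DSS-treated Cygb-/- colons for 31 of the 35 genes, and for 32.5% of all 13275 genes with a mean above the median probe set. The exceptions were Psmd5, highest in untreated WT, Psma8 and Psmb1, highest in untreated Cygb-/-, and Psmd4, highest in treated WT colons.

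The genes differed in how evenly arrays of a group behaved. Among the 32 genes with a mean above the median probe set, the median SD was 0.087 over untreated WT arrays, 0.072 over untreated Cygb-/- arrays, 0.18 over treated WT arrays and 0.12 over treated Cygb-/- arrays. For all 13275 such genes the medians were 0.13, 0.12, 0.17 and 0.15. The spread was wider in treated than in untreated WT colons for 30 of 32 subunit genes, as for 71.6% of all such genes. On AOM/DSS WT replicate 3, 29 of the 32 genes lay above every untreated WT array, and on replicate 5, 25 did. On replicates 1 and 4 it was 2 and 6, and on the others 11 to 18. Of all 13275 genes, 35.8% did so on replicate 3, 37.7% on replicate 5 and 21.5% to 32.2% on the others. On the Cygb-/- arrays it was 18, 25, 30, 15 and 27 of the 32, against the untreated Cygb-/- arrays, and 29.3% to 38.3% of all 13275. Replicates 3 and 5 were also the WT arrays with the highest mean of the 6 proliferation genes, 0.85 and 0.92 above untreated WT, against 0.015 to 0.60 on the other 6. Their neutrophil markers, at 2.36 and 2.44, lay within the range of the other treated WT arrays (1.97 to 3.84). Replicates 3 and 5 also had the lowest means of the 8 colonocyte markers (-0.93 and -0.98, against -0.64 to -0.33 on the other 6), of the 6 smooth muscle markers (-0.69 and -0.56, against -0.51 to -0.11), of the 4 T cell markers (0.31 and 0.42, against 0.52 or more) and of the 5 macrophage markers (1.05 and 1.19, against 1.22 to 1.75). The squamous markers (0.45 and 2.99) lay within the range of the other treated WT arrays (-0.19 to 3.93). The B and plasma cell markers were lowest on replicate 3 (0.72), while replicate 5 (1.52) lay within the range (1.28 to 2.22). On treated Cygb-/- replicates 1 to 5 the proliferation genes stood 0.63, 0.99, 0.80, 0.88 and 0.93 above untreated WT. There the mean of the 35 genes stood at 0.15, 0.24, 0.32, 0.14 and 0.31. The part of these cell types and of proliferation in the subunit values was not tested.

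The deviations of the genes from their group means ran together. Over 29 arrays the mean correlation of these deviations was 0.53 over the 496 pairs of the 32 genes, and 0.013 over all pairs of the 13275 genes. It was 0.51 between core genes, 0.55 between regulatory particle genes and 0.53 between the 2 particles. The closest pairs were Psma3 with Psmc3 (r = 0.91), Psmc6 with Psmd12 (0.89) and Psmc6 with Psmd14 (0.88). Within the 13 treated arrays the mean was 0.67, and within the 16 untreated arrays 0.16, against 0.014 and 0.011 over all genes. Without AOM/DSS WT replicate 3 the mean over the remaining 28 arrays was 0.42. These are descriptions over arrays that share a normalization, and genes are not independent of each other.

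Some members stood outside this pattern. The mean correlation with the other 31 genes was highest for Psmc6, at 0.65, and was 0.47 for Psmb6, 0.31 for the chaperone Psmd5, 0.17 for Psmb3 and -0.065 for the chaperone Psmd9. Psmd9 and Psmd5 were the pair with the lowest value, -0.37. Psmb3 (mean 5.07) and Psmd9 (mean 6.20) were the dimmest of the 32 genes, and Psmd5 had their smallest SD within groups (0.065). The part of measurement noise in these low correlations was not tested. Averaged over genes, the mean of the 15 core genes stood 0.084 ± 0.10 (SD, n = 8) above untreated WT in treated WT and 0.17 ± 0.081 (SD, n = 5) in treated Cygb-/- colons. That of the 20 regulatory particle genes stood 0.17 ± 0.16 (SD, n = 8) and 0.28 ± 0.090 (SD, n = 5) above it. The 3 dim genes, Psma5, Psma8 and Psmb11, are all core genes. Over the other 12 core genes the mean was 0.094 ± 0.14 (SD, n = 8) and 0.20 ± 0.11 (SD, n = 5). The difference between the particles was not tested.

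**Figure D4:**
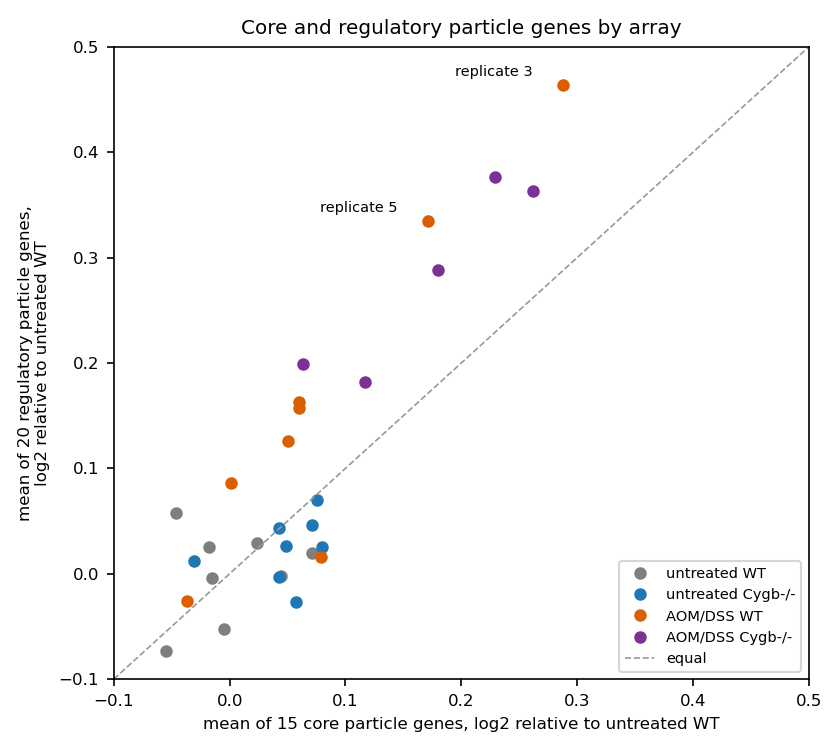
Mean log2 value of the 20 regulatory particle genes (vertical axis) against that of the 15 core particle genes (horizontal axis) on each of the 29 arrays, both relative to the untreated WT mean; the dashed line marks equal values. All 5 treated Cygb-/- arrays and 7 of 8 treated WT arrays lie above the line, with AOM/DSS WT replicate 3 highest at 0.46 and 0.29.

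Psmb6, the reference gene, was tested alone as well as among all probe sets. It ran from 8.42 to 8.70 (median 8.54) in untreated WT, from 8.35 to 8.61 (median 8.53) in untreated Cygb-/- and from 8.44 to 8.83 (median 8.62) in treated WT colons, and was 8.57, 8.68, 8.71, 8.62 and 8.86 on the treated Cygb-/- arrays. In Cygb-/- colons all 5 treated arrays lay above the untreated median and 4 of 5 above every untreated array. The difference of 0.17 passed an exact permutation test of this gene alone (two-sided, p = 0.0031, adjusted p = 0.012 over 4 comparisons), where 0.0016 is the smallest p that 5 against 8 arrays allow. It did not pass among all 41345 probe sets (adjusted p = 0.074 from limma). It is a change of 1.12-fold. In WT colons the difference was 0.068 (exact permutation p = 0.24, adjusted 0.39), and the genotypes differed by -0.021 untreated (exact permutation p = 0.63, adjusted 0.63) and by 0.077 after AOM/DSS (exact permutation p = 0.29, adjusted 0.39). The interaction was 0.098 (adjusted p = 0.85 from limma).

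The study's methods name 4 other reference genes, and Polr2a stands here for RNA polymerase II. The SD of a probe set depends on its probes and its brightness, so these values are given side by side without a ranking. Gapdh, with a mean of 12.43, lies near the top of the array's scale (13.28 to 13.47), and whether its spread is compressed there was not tested. The SD over all 29 arrays was 0.043 for Gapdh, 0.10 for Actb, 0.11 for Psmb6, 0.13 for Polr2a and 0.14 for Rplp0. The 4 group means spanned 0.078 for Gapdh, 0.13 for Polr2a, 0.17 for Psmb6, 0.19 for Rplp0 and 0.19 for Actb. Of the 5 genes, Actb was called, with a rise of 0.19 on treatment of Cygb-/- mice (limma, adjusted p = 0.015). The median SD of the 32 subunit genes was 0.15, against 0.20 over the 13275 genes. That of Psmd5 was 0.068, and its group means spanned 0.078.

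**Figure D5:**
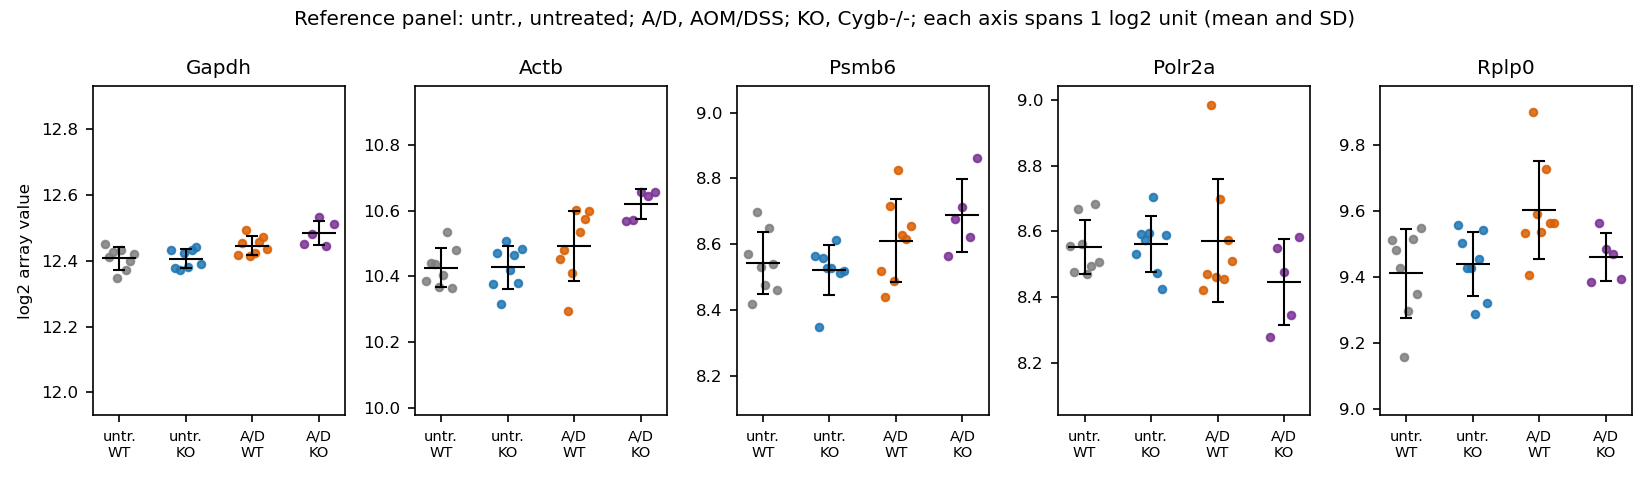
Log2 array values (vertical axes, each spanning 1 log2 unit) of the 5 reference genes in the 4 groups; points are arrays, and bar and whiskers are the mean and SD of the group. The points of Gapdh, near the top of the array's scale, have an SD of 0.043 over 29 arrays, and all 5 AOM/DSS Cygb-/- points of Psmb6 lie above the median of the untreated Cygb-/- arrays.

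Genes that work with the proteasome changed in both directions after AOM/DSS, and so did the array as a whole. Of genes with a mean above the median probe set, 24.0% passed as higher in WT and 26.4% in Cygb-/- colons. The share of probe sets that passed as lower was 14.3% in WT and 13.5% in Cygb-/- colons. The lists below hold few genes each, and whether their counts depart from these shares was not tested. Of the 3 immunoproteasome genes, 2 were higher in each genotype. Psmb8, which replaces Psmb5, rose by 0.98 in WT and 1.01 in Cygb-/- colons, and Psmb9, which replaces Psmb6, by 0.98 and 0.99 (adjusted p of 0.00029 to 0.0021 from limma). Psmb10, which replaces Psmb7, was at 0.24 and 0.075 and was not called. No constitutive gene changed by as much as Psmb8 or Psmb9, whose differences were about 2-fold. Psmb8 ran from 7.59 to 8.29 in untreated and from 7.98 to 9.58 in treated WT colons, with overlap, and Psmb9 from 6.42 to 6.87 and from 6.69 to 8.23.

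Of 5 chaperones of core assembly, 1 was higher in WT and 2 in Cygb-/- colons. Pomp, which guides the ripening of the beta rings, rose by 0.42 in WT and by 0.51 in Cygb-/- colons (adjusted p = 0.00058 and 0.00014 from limma), and Psmg2, part of an alpha ring chaperone, by 0.26 in Cygb-/- colons (0.22 in WT, adjusted p = 0.065 from limma). Of 5 activators and inhibitors, 3 were higher in WT and 2 in Cygb-/- colons. Psme3, the nuclear activator, rose by 0.23 and 0.41, and Psme4, another nuclear cap, by 0.33 and 0.22. Psme1, part of the interferon-induced activator, rose by 0.25 in WT colons (0.23 in Cygb-/-, adjusted p = 0.058 from limma). Psme2 and Psmf1, the rest of this list, were not called in either genotype. The mean of Psme2 was 5.95 in untreated and 5.88 in treated WT colons, and 5.92 and 5.98 in Cygb-/- colons. Of 4 measured further subunits and bound enzymes, 2 and 3 were higher. Uchl5, a deubiquitinase of the particle, rose by 0.36 and 0.54, the small lid subunit Sem1 by 0.27 and 0.27, and the deubiquitinase Usp14 by 0.38 in Cygb-/- colons (0.17 in WT, adjusted p = 0.24 from limma).

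Of 6 measured genes listed around NRF1, which include its relative Nfe2l2, 2 were higher and 1 lower in WT, and 2 higher and 2 lower in Cygb-/- colons. Nfe2l1 itself was not called, at -0.071 in WT and 0.035 in Cygb-/- colons. Vcp, the ATPase that pulls proteins out of membranes, rose by 0.25 and 0.32, and Sel1l, an adaptor of degradation at the endoplasmic reticulum, by 0.20 and 0.28. Nfe2l2, which encodes NRF2, the activator of antioxidant genes, fell by 0.25 in WT and by 0.32 in Cygb-/- colons (adjusted p = 0.0016 and 0.0056 from limma). Ngly1, which removes sugar chains from NRF1, fell by 0.47 in Cygb-/- colons (adjusted p = 0.0038), against -0.21 in WT colons (adjusted p = 0.12), both from limma. Of 4 measured ubiquitin and shuttle genes, 0 were called in WT and 1 in Cygb-/- colons, the shuttle Rad23b, at 0.23 (adjusted p = 0.0098 from limma). None of these lists had a gene called between genotypes.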

How the data were processed

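Colonic RNA of 29 mice was measured on 1 array each. The values were deposited by the authors as log2 expression computed with RMA (version not given in the sources used here) and normalized between arrays. No depth applies to arrays, whose number limits the precision, and 0 columns were left out. The labels number the arrays of a group as biological replicates. Groups were compared on the log2 values as deposited by linear models with moderated variances (limma 3.58.1, run in R 4.3.3), 2 groups at a time, calling an adjusted two-sided p under 0.05 across the 41345 probe sets, and the interaction on all 29 arrays. Where a gene had several probe sets that name it alone, the one with the highest mean was used. Psmb6 was also tested alone with exact permutation tests (SciPy 1.17.1). The procedure was tested on simulated data. Correlations and promoter motifs are descriptions.

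The genes and lists were chosen with earlier results of these data known. Named are Psmb5, Psmb6, Psmb7, Psma8, Psmb11, genes called in any comparison (at most 12 a comparison by size), the 2 highest and 2 lowest in each comparison, up to 4 called genes of each other list by smallest p, and the reference panel. Psma3 and Psmc6 (in Cygb-/- colons), Psmd4, Psmd8, Psmd13, Psmb1, Psmb3, Psmc3 and genes named for a spread or correlation were named after their values were seen. Alternatives were the arrays in the fit, the variance model, centring of arrays, a filter on dim probe sets, the methods' t-test, a replicate block, the probe set per gene and each array left out. Same-numbered arrays were not treated as pairs, since their residual correlations were not over 0.1 in every pair (mean -0.0076, -0.022, -0.052 and 0.076 in the 4 comparisons).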

Additional observations from a re-analysis of the deposited data

Results flagged for a closer look

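Of 140 sets of values of 1 gene in 1 group, 7 had an array far from the others by Dixon's criterion at the 95% level, which chance alone flags in about 1 of 20 sets (a share of 0.05). Psma1 was at 7.80 on untreated WT replicate 5, below the range of 8.03 to 8.19 of the other 7 arrays. Psmb1 was at 9.36 on untreated WT replicate 4, against 9.49 to 9.58. Psmb3 was at 4.98 on AOM/DSS Cygb-/- replicate 4, against 5.26 to 5.34. Psmb6, the reference gene, was at 8.35 on untreated Cygb-/- replicate 2, against 8.51 to 8.61. Psmd8 was at 9.31 on untreated Cygb-/- replicate 7, above 9.23 to 9.27, and at 9.64 on AOM/DSS WT replicate 3, above 9.23 to 9.42. Psmd10 was at 7.31 on untreated WT replicate 2, above 7.09 to 7.18. No gene differed between genotypes in its response past the threshold.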

How the results depend on the processing

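With each array centred on its median, 6 genes were higher after AOM/DSS in WT colons, without Psmb2, Psmd1, Psmd7 and Psmd14. The methods' t-test after a 1.5-fold filter called 0 genes in both genotypes, since none reached 1.5-fold. The WT call of Psmc2 ended with the mean of its 2 probe sets (adjusted p = 0.060), and those of Psma3 and Psmc6 in Cygb-/- colons with all 4 groups in 1 fit (0.055 and 0.11), in limma. That fit also called Psma2 and Psmd6 in WT and Psmb3 and Psmd9 in Cygb-/- colons. Psmd6 was called in WT colons too with a trended, robust variance, without dim probe sets and without AOM/DSS replicate 1 or 4 or untreated replicate 3. Besides Psmb6, the trended, robust variance added Psma2 and Psmc3 in Cygb-/- colons, and the filter on dim probe sets Psma2, Psmb3, Psmc3 and Psmd9. Centring added Psmd9. With the replicate block, 6 genes were higher in WT and 8 in Cygb-/- colons, although the numbers were not found to pair the arrays (0, 0, 0 and 3 pairs over 0.1). With 1 array left out, the genes higher ran from 7 to 12 in WT and from 12 to 16 in Cygb-/- colons and the genes lower from 0 to 1 in WT colons. The medians ran from 0.083 to 0.16 in WT, 0.14 to 0.19 in Cygb-/-, 0.014 to 0.044 between untreated and 0.071 to 0.14 between treated genotypes, and 0.042 to 0.11 for the interaction. The difference of Psmb6 alone ran from 0.12 to 0.20 in Cygb-/- colons, past the threshold each time (adjusted p of 0.010 to 0.032, exact permutation test). In the limma fit it passed with a trended, robust variance (adjusted p = 0.040), without dim probe sets (0.031) and without AOM/DSS Cygb-/- replicate 1 (0.049). Counts of 0 between genotypes and for the interaction stayed at 0 under the alternatives run. Values lie on the array's log2 scale, where dim probe sets such as those of Psma5, Psma8 and Psmb11 may understate a change.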
